A study of Mus musculus with 6 samples.

Results

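The 45 genes described here build and run the mitotic spindle and divide the cell. They were taken by name from the 35275 genes of the deposited read-count table, and all 45 were found there. The list was chosen with earlier results of these data known. RNA was measured in 6 kidneys of wild-type (WT) mice of the strain C57Bl/6, 28 days after ischemia-reperfusion injury, in which blood flow to the kidney is stopped and then let back in. The ischemia was 35 min long in 3 kidneys (severe injury) and 20 min long in the other 3 (mild injury). All 6 had been injured, kidneys without injury are not used here, and nothing in the labels states age, sex, or whether each kidney is from a different mouse, so p-values measure the spread between these samples, which may be partly technical. The libraries are called by the numbers of their table columns: mild 7, 8 and 9, and severe 13, 14 and 15.

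Cells that enter mitosis condense their chromosomes, attach them to a spindle of microtubules, pull the copies apart once every chromosome is attached, and then pinch in the middle. The messenger RNAs of these steps rise together late in the cell cycle and are low in resting cells, so in a tissue their level follows how many cells are cycling. In kidney they are known for a burst of tubule cell division in the days after injury. Ischemic injury has also been linked to tubule cells that stall before division.

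Genes of this kind share promoter features. The cell cycle homology region, through which the DREAM and MuvB complexes hold these genes off in resting cells and switch them on late in the cycle, was searched as the letters TTTGAA or TTCGAA. The CCAAT box, bound by the factor NF-Y, was searched as the letters CCAAT. Both strands were read in RefSeq promoter windows (build GRCm38.p6) that run from 250 bases before to 50 after the start site. The letters TTCGAA read the same on both strands and counted once. Windows were found for 38 of the 45 genes, and not for Ccna2, Aurkb, Incenp, Kif20a, Tpx2, Smc4 and Foxm1. The homology region's letters lay in the windows of 32 of the 38 genes (84.2%), against 21.7% of the 27025 genes in the promoter table. Within 50 bases of the start site they were found in 29 of the 38 (76.3%), against 6.12% of all genes. CCAAT lay in the windows of 30 of the 38 (78.9%, against 41.1%), and 1 window held both motifs in 28 of them (73.7%, against 8.61%). Neither was found for Melk, Birc5, Nusap1 and Ncaph. A match is a description of the letters in the window and not a bound site. Other spellings of the motifs were not searched, so a window without a match may still hold one.

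The stretches below show the 150 bases before the start site, 5′ to 3′ on the gene's own strand, of genes whose levels are described later: the kinase gene Cdk1 (chr10:69352913-69353062, minus strand), the topoisomerase gene Top2a (chr11:99024190-99024339, minus strand), the proliferation marker Mki67 (chr7:135716380-135716529, minus strand), the exit genes Cdc20 (chr4:118437344-118437493, minus strand) and Ube2c (chr2:164769779-164769928, plus strand), and Ccnb1 (chr13:100786487-100786636, minus strand), which has CCAAT without the homology region's letters. Capitals mark both motifs, which read TTCAAA and ATTGG where they lie on the opposite strand.
Cdk1: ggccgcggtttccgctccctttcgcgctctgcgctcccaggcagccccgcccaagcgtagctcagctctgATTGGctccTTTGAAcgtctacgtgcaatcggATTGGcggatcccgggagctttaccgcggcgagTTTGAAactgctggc
Top2a: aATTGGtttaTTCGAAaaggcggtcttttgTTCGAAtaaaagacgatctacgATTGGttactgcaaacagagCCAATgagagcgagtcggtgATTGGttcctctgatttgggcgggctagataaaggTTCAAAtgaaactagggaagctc
Mki67: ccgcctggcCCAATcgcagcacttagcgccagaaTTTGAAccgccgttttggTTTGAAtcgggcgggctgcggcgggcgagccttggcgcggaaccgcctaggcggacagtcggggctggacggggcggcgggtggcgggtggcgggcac
Cdc20: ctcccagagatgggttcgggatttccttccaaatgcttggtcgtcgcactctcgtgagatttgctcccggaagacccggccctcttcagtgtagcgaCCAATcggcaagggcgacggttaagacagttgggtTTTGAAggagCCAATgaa
Ube2c: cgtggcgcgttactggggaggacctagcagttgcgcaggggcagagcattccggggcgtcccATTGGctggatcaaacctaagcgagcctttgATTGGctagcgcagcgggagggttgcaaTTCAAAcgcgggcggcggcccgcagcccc
Ccnb1: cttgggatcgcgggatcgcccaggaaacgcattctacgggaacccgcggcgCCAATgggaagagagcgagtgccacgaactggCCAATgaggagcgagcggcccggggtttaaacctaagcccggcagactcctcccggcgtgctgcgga
Top2a had 3 homology region matches and 4 CCAAT matches in its stretch, Cdk1 had 2 of each, and Mki67 had 2 and 1. In Cdc20 and Ube2c there was 1 homology region match beside 2 CCAAT matches.

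**Figure D1:**
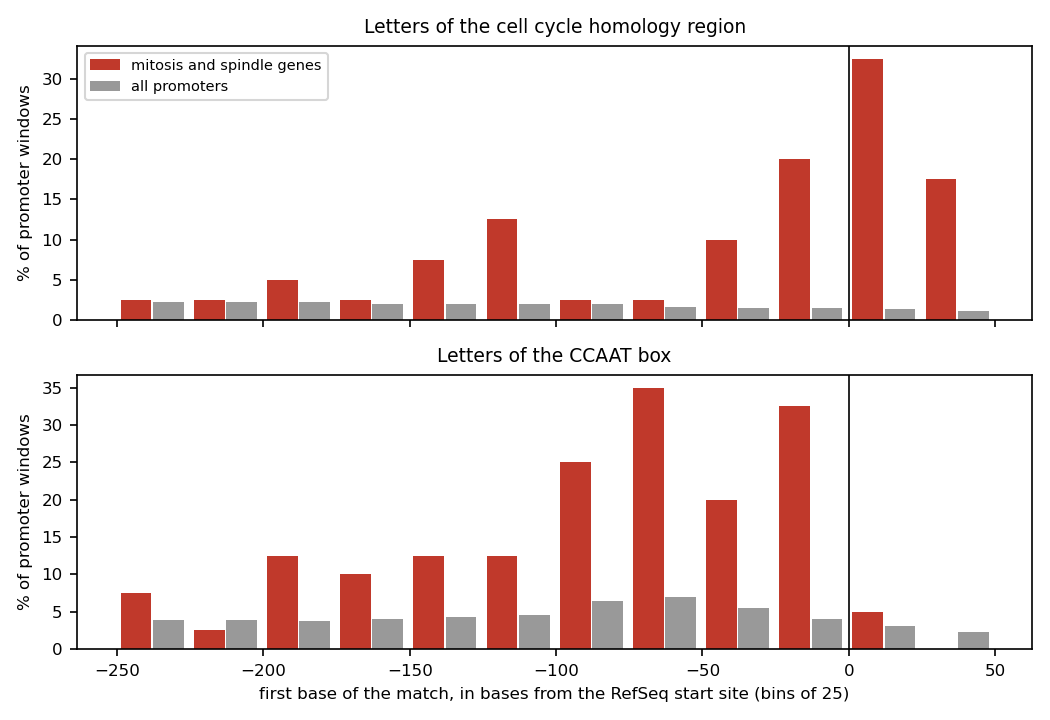
Share of promoter windows (percent) with a match that starts in each bin of 25 bases around the RefSeq start site, for the 40 windows of 38 mitosis and spindle genes (red) and all promoters (grey); the top panel is the cell cycle homology region and the bottom panel the CCAAT box. Homology region matches of the mitosis genes gather around the start site, where 76.3% of the genes have one within 50 bases, against 6.12% of all genes.

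Gene counts per library ran from 15240491 to 17730967, and 14883 genes had enough counts to be tested, the 45 mitosis genes among them. Counts for these genes were small, from 4 (Ttk in library 7) to 794 (Smc4 in library 14), and together they took between 0.0188% and 0.0505% of a library's counts. The tissue label held: the proximal tubule list (7 genes, such as Slc34a1 and Lrp2) summed to between 6604 and 14916 CPM. CPM is the gene's count in 1000000 counts of tested genes, after TMM scaling, which evens out differences in RNA composition between libraries. Severe libraries were further from each other than mild ones, with a median SD on the log2 scale of 0.19 against 0.10 over all tested genes, and 0.34 against 0.25 over the mitosis genes.

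Mitosis genes stood at higher levels in severe kidneys, but 0 of the 45 passed the test that takes all 6 libraries together (quasi-likelihood test in edgeR, p adjusted by Benjamini-Hochberg from 0.0867 to 0.980). In that fit 0.0134% of all tested genes passed. All 45 log2 fold changes were above 0, from 0.01 for Ect2 to 1.60 for Ttk, with a median of 0.72 (1.65-fold) against 0.00019 over all tested genes. Unadjusted p was under 0.05 and the level higher in severe kidneys for 34 of the 45 genes, against 15.8% of tested genes. For 31 of the 45 every severe library lay above every mild library, against 17.9% of tested genes. In whole tissue a larger number of dividing cells cannot be told apart from more of this RNA in each dividing cell.

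**Figure D2:**
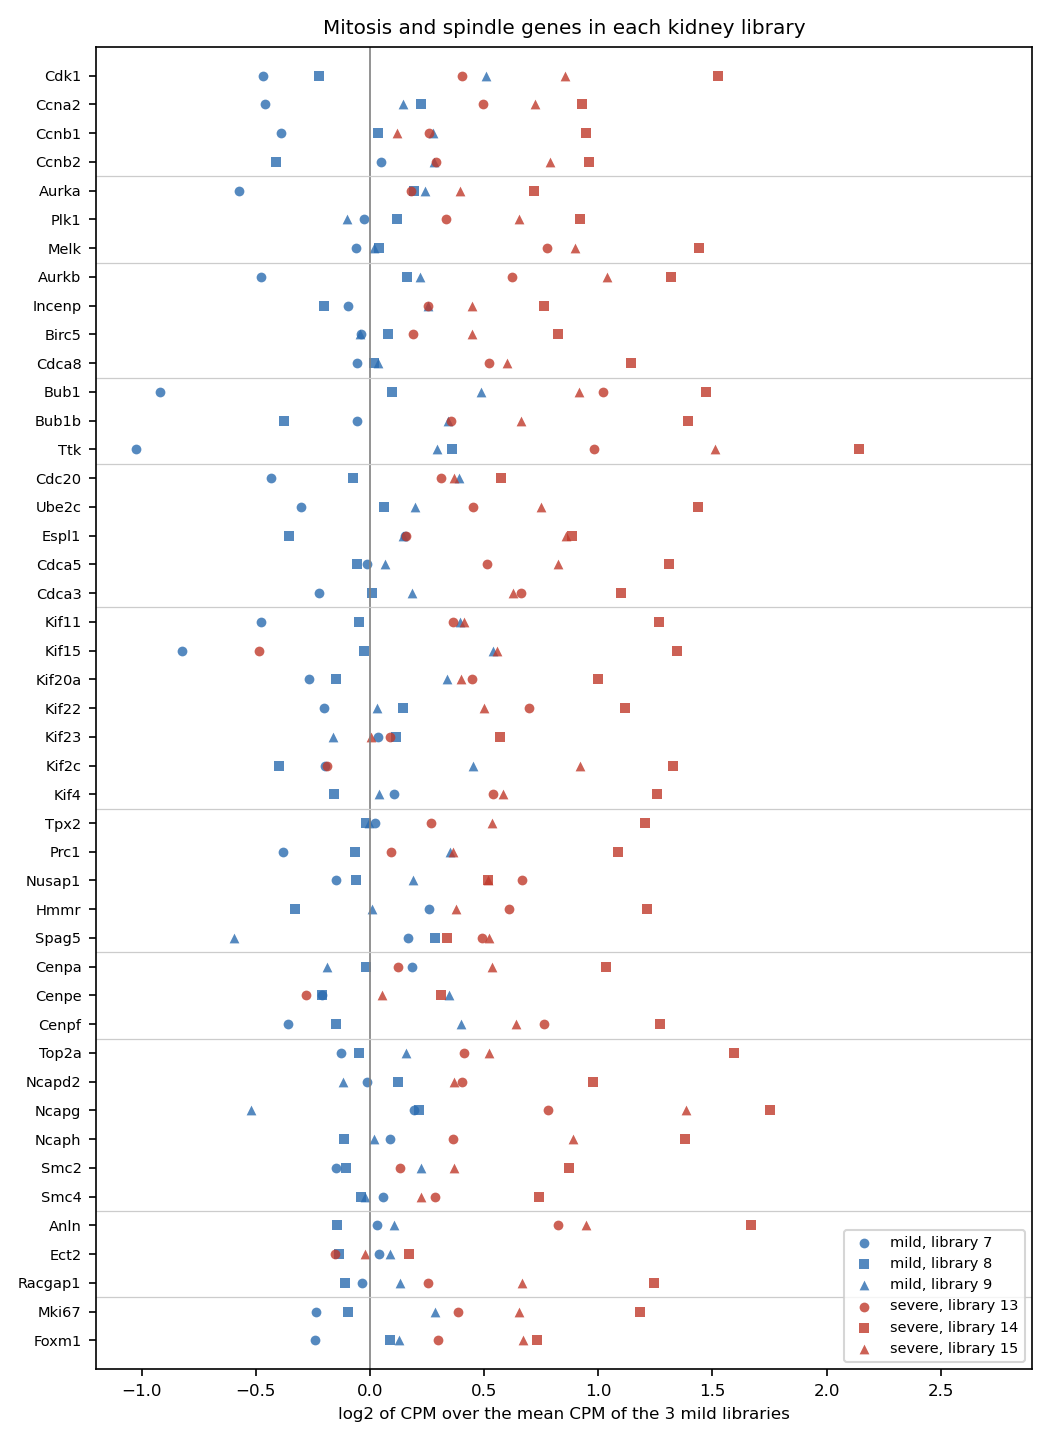
Level of each of the 45 genes (rows, grouped by role) in each library, as log2 of CPM over the mean CPM of the 3 mild libraries; blue marks mild and red severe libraries, and the shape gives the library. Library 14 (red square) is the highest of the 6 libraries for 42 of the 45 genes. The groups overlap for 14 of the 45, Ect2 and Cenpe among them.

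Cdk1 encodes the kinase that starts mitosis, and it pairs with cyclin A2 (Ccna2) and cyclins B1 and B2 (Ccnb1, Ccnb2). Cdk1 stood at 2.83, 3.35 and 5.56 CPM in mild libraries 7, 8 and 9 and at 5.18, 11.25 and 7.07 CPM in severe libraries 13, 14 and 15. Mild library 9 lay above severe library 13, so the groups overlapped, with a log2 fold change of 1.004 ± 0.35 (SE, edgeR, adjusted p = 0.155) that was 0.65 without library 14. Ccnb1 was at 2.89, 3.89 and 4.598 CPM in mild and 4.54, 7.31 and 4.12 CPM in severe libraries. Only library 14 was above the mild range for Ccnb1, whose log2 fold change of 0.49 ± 0.28 (adjusted p = 0.298) went to 0.19 without it. Ccna2 and Ccnb2 kept their groups apart, with log2 fold changes of 0.72 ± 0.21 and 0.71 ± 0.25. The table places Cdk1 at chr10:69336635-69352938 (mm10), minus strand.

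Among the other mitotic kinases, Plk1, which acts at centrosomes, kinetochores and the cleavage furrow, measured 3.03, 3.35 and 2.88 CPM in mild and 3.90, 5.85 and 4.86 CPM in severe libraries. All 3 severe values were above the mild ones, a log2 fold change of 0.65 ± 0.21 (adjusted p of 0.134 in edgeR). Melk, a kinase gene switched on in dividing cells, was close to even in mild kidneys, with 1.17, 1.26 and 1.24 CPM. It stood at 2.09, 3.32 and 2.27 CPM in severe ones, a log2 fold change of 1.07 ± 0.27 (adjusted p = 0.100). Aurka, the aurora kinase of the spindle poles, had overlapping groups and a log2 fold change of 0.45 ± 0.27.

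The chromosomal passenger complex corrects faulty attachments and later marks the cleavage plane. Its kinase Aurkb was at 1.65, 2.58 and 2.68 CPM in mild and 3.55, 5.74 and 4.73 CPM in severe libraries. The groups did not overlap, and the log2 fold change was 1.02 ± 0.27 (edgeR, adjusted p = 0.107). Birc5, which encodes survivin, had a smaller difference between groups that also did not overlap, with 3.03, 3.29 and 3.02 CPM in mild and 3.55, 5.51 and 4.24 CPM in severe libraries (0.51 ± 0.21, adjusted p = 0.202). For the borealin gene Cdca8 the value was 0.78 ± 0.22. The scaffold gene Incenp was at 0.50 ± 0.18, with mild library 9 (10.02 CPM) just above severe library 13 (10.003 CPM).

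Spindle checkpoint genes, which hold back anaphase until chromosomes are attached, had a median log2 fold change of 1.15. For all 3 every severe library lay above every mild one, against 17.9% of all tested genes. Bub1, a checkpoint kinase, measured 0.62, 1.26 and 1.65 CPM in mild and 2.38, 3.26 and 2.21 CPM in severe libraries (1.15 ± 0.36, edgeR adjusted p = 0.130). Ttk, the kinase that starts checkpoint signalling, had the highest fold change of the 45 genes at 1.60 ± 0.45 (adjusted p = 0.112), on few reads. It had 4, 12 and 10 counts in mild and 19, 44 and 26 in severe libraries, and the exact 95% Poisson interval of the 4 counts, which covers counting error only, ran from 1.09 to 10.2. Bub1b, which encodes the checkpoint protein BubR1, stood at 0.87 ± 0.31.

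The next 5 genes were listed as partners of the anaphase-promoting complex or genes of chromatid cohesion. For 4 of 5 every severe library lay above every mild one, against 17.9% of all tested genes. Cdc20, the activator of the anaphase-promoting complex, was at 4.34, 5.57 and 7.69 CPM in mild and 7.27, 8.72 and 7.56 CPM in severe libraries. Mild library 9 lay above libraries 13 and 15, with a log2 fold change of 0.42 ± 0.22 (adjusted p of 0.264 in edgeR). Ube2c, the ubiquitin-conjugating enzyme that works with this complex, had 2.14, 2.75 and 3.02 CPM in mild against 3.61, 7.15 and 4.43 CPM in severe libraries. Its groups did not overlap, with a log2 fold change of 0.94 ± 0.29 (adjusted p = 0.131) that was 0.60 without library 14. Cdca3, a gene of mitotic entry, measured 3.31, 3.89 and 4.39 CPM in mild and 6.11, 8.27 and 5.96 CPM in severe libraries, at 0.81 ± 0.20 (adjusted p = 0.0987). The sororin gene Cdca5, which protects cohesion between chromatids, was at 0.92 ± 0.28 and the separase gene Espl1, which cuts it, at 0.67 ± 0.26.

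Kinesin motors slide, cross-link or take apart spindle microtubules. Of these 7 genes 3 had severe libraries that were all above the mild ones, against 17.9% of all tested genes. Kif22 and Kif4, which move chromosomes away from the poles, stood at log2 fold changes of 0.79 ± 0.22 and 0.83 ± 0.27, and Kif20a, a motor of the central spindle, at 0.65 ± 0.25. Kif11, which pushes the poles apart, and its partner in that task Kif15 had overlapping groups, at 0.74 ± 0.32 and 0.66 ± 0.50. Kif2c, which shortens microtubules, was at 0.82 ± 0.41, also with overlapping groups. Without library 14 the values went to 0.39 for Kif11, 0.12 for Kif15 and 0.47 for Kif2c. Kif23, the motor of the central spindle that binds Racgap1, had 8.75, 9.22 and 7.62 CPM in mild and 9.07, 12.66 and 8.55 CPM in severe libraries. Libraries 13 and 15 lay within its mild range, and its log2 fold change was 0.24 ± 0.18 (edgeR, adjusted p = 0.413) and 0.0446 without library 14.

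Of the proteins that organise spindle fibres, Nusap1 had the least spread among severe libraries of the 45 genes. It was at 5.93, 6.29 and 7.48 CPM in mild and 10.4, 9.40 and 9.41 CPM in severe libraries, a log2 fold change of 0.57 ± 0.14 (adjusted p of 0.100 in edgeR). Here library 14 was not the highest severe library, and the value without it was 0.595. Tpx2, which activates aurora A on the spindle, stood at 0.72 ± 0.25 and the microtubule-binding gene Hmmr at 0.78 ± 0.27. Prc1, which bundles the midzone, was at 0.58 ± 0.29 with overlapping groups and at 0.23 without library 14, and the astrin gene Spag5 was at 0.45 ± 0.23. At the centromere, the kinetochore gene Cenpf stood at 0.92 ± 0.27 and the histone variant gene Cenpa at 0.61 ± 0.26. The groups overlapped for Cenpa, whose value was 0.34 without library 14. Cenpe, a kinetochore motor, measured 3.17, 3.17 and 4.67 CPM in mild and 3.02, 4.56 and 3.81 CPM in severe libraries. Its groups overlapped throughout, at a log2 fold change of 0.0523 ± 0.242 (adjusted p = 0.905).

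Among chromosome structure genes, Top2a, the topoisomerase that untangles sister chromatids, was at 8.96, 9.46 and 10.9 CPM in mild and 13.03, 29.5 and 14.02 CPM in severe libraries. Library 14 stood far above the other severe libraries, and the log2 fold change of 0.95 ± 0.31 (edgeR, adjusted p = 0.142) was 0.47 without it, with groups still apart. Of the condensin I subunits, which compact chromosomes, Ncapg stood at 1.24, 1.26 and 0.75 CPM in mild and 1.86, 3.66 and 2.83 CPM in severe libraries (1.35 ± 0.34, adjusted p = 0.100). Ncaph was at 0.94 ± 0.27 and Ncapd2 at 0.61 ± 0.18. The ATPase subunits Smc2 and Smc4, which both condensins share, were at 0.49 ± 0.22 and 0.44 ± 0.14. The groups overlapped for Smc2, whose value was 0.26 without library 14. Per kilobase of gene length Smc4 had the highest mean level of the 45 genes, 6.20 CPM per kb in mild and 8.38 in severe kidneys, and Ttk the lowest in mild kidneys, 0.195 CPM per kb.

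Cytokinesis genes held both the smallest p-value and the smallest fold change. Anln, which encodes the furrow protein anillin, was at 3.65, 3.23 and 3.84 CPM in mild and 6.34, 11.4 and 6.89 CPM in severe libraries. The lowest severe value was well above the highest mild one, and the log2 fold change was 1.20 ± 0.25 (2.29-fold, edgeR adjusted p = 0.0867). The table places it at chr9:22331214-22389206 (mm10), minus strand. Racgap1, the partner of Kif23, stood at 5.86, 5.57 and 6.59 CPM in mild and 7.15, 14.2 and 9.53 CPM in severe libraries, at 0.78 ± 0.25 (adjusted p = 0.137) and 0.47 without library 14. Ect2, which activates the small GTPase RhoA at the furrow, was level, with 7.65, 6.77 and 7.89 CPM in mild and 6.69, 8.38 and 7.32 CPM in severe libraries (0.00676 ± 0.148, adjusted p = 0.980).

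Mki67, the gene of the proliferation marker Ki-67, measured 9.51, 10.48 and 13.7 CPM in mild and 14.7, 25.5 and 17.7 CPM in severe libraries. Every severe value was above every mild one, and the log2 fold change was 0.78 ± 0.23 (1.72-fold, edgeR adjusted p = 0.117), or 0.53 without library 14. Foxm1, a transcription factor of the late cell cycle, was at 3.72, 4.67 and 4.804 CPM in mild and 5.41, 7.31 and 7.01 CPM in severe libraries. Its groups did not overlap either, at 0.58 ± 0.19 (adjusted p = 0.141).

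The severe kidneys differed from each other in these genes. Among the severe libraries, library 14 was highest for 43 of the 45 genes (41.5% of all tested genes), the exceptions being Nusap1 and Spag5, and library 13 was lowest for 33. The order 13, then 15, then 14 held for 33 genes, against 28.5% of all tested genes. Summed over the 45 genes, mild libraries 7, 8 and 9 had 199.4, 209.6 and 235.5 CPM and severe libraries 13, 14 and 15 had 273.1, 433.2 and 303.7 CPM. The mean log2 level, set against the mild mean, was -0.14, -0.02 and 0.16 in mild and 0.38, 1.08 and 0.60 in severe libraries. Mild kidneys differed too, with library 9 highest for 28 genes and library 7 lowest for 24. For these mild rankings, and for library 13 as the lowest severe library, the share of all tested genes was not counted.

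**Figure D3:**
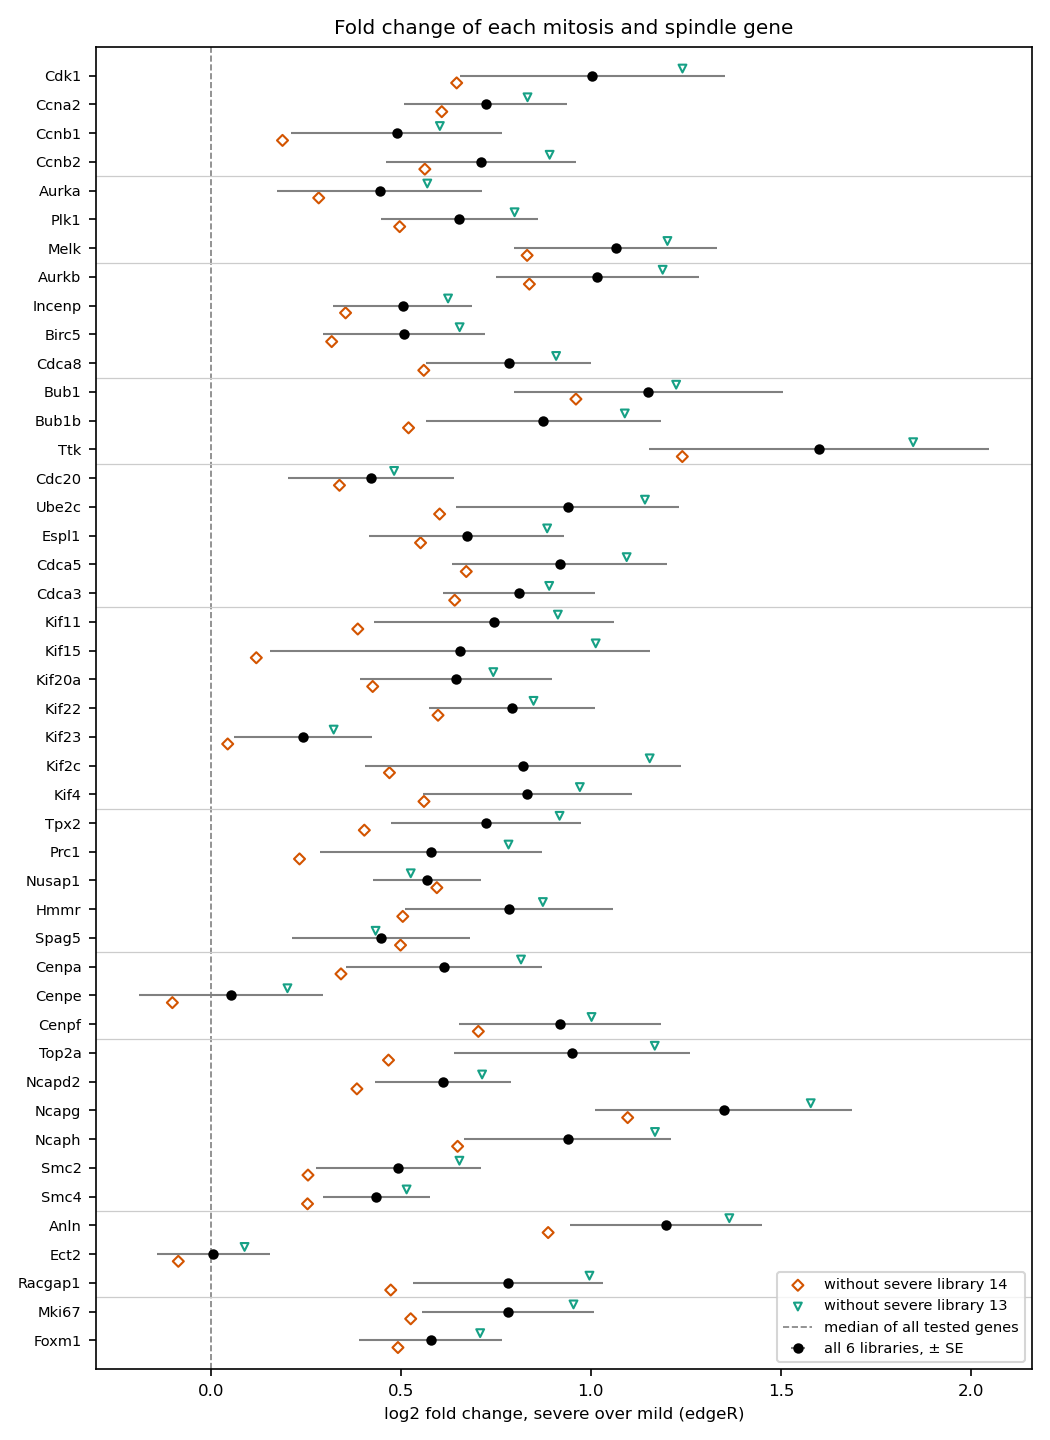
Log2 fold change, severe over mild, of each gene with its SE (black), without severe library 14 (orange diamonds) and without severe library 13 (green triangles); the dashed line is the median of all tested genes. Without library 14 the fold change was smaller for 43 of the 45 genes, and the median went from 0.72 to 0.50.

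Calls depended on the severe libraries and on the test. Without library 13, the severe kidney nearest to the mild ones, 29 of the 45 genes passed as higher (edgeR, adjusted p from 0.00916), where 13.8% of all tested genes did. Without library 14, 1 passed, Anln (log2 fold change 0.89, adjusted p = 0.0289), where 2.40% of tested genes did, a share close to that of the mitosis genes. Anln was also among the 29. Leaving out library 15 gave 0 of the 45, where 0.00664% of all tested genes passed. Leaving out any 1 mild library also gave 0 of the 45, where 0% of all tested genes passed. At an unadjusted p under 0.05, 23 were then higher without library 7 (11.5% of tested genes), 21 without library 8 (11% of them), 33 without library 9 (12.3%) and 29 without library 15 (12.8%). With all libraries but no filter on low counts, edgeR called Anln alone of the 45 (0.591% of tested genes). DESeq2 on all 6 libraries called 15 higher (6.88% of tested genes), of which 14 were among the 29. With limma-voom and sample quality weights, which down-weight libraries far from their group, 33 were called (18.2% of tested genes). The same limma-voom fit without the weights, added after seeing the data, called 0 (0.00672% of tested genes; lowest adjusted p 0.146, 31 at an unadjusted p under 0.05), so the 33 rest on the weights. Ccnb1, Aurka, Cdc20, Kif11, Kif15, Kif20a, Kif23, Prc1, Hmmr, Spag5, Cenpe and Ect2 passed in none of these fits.

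**Figure D4:**
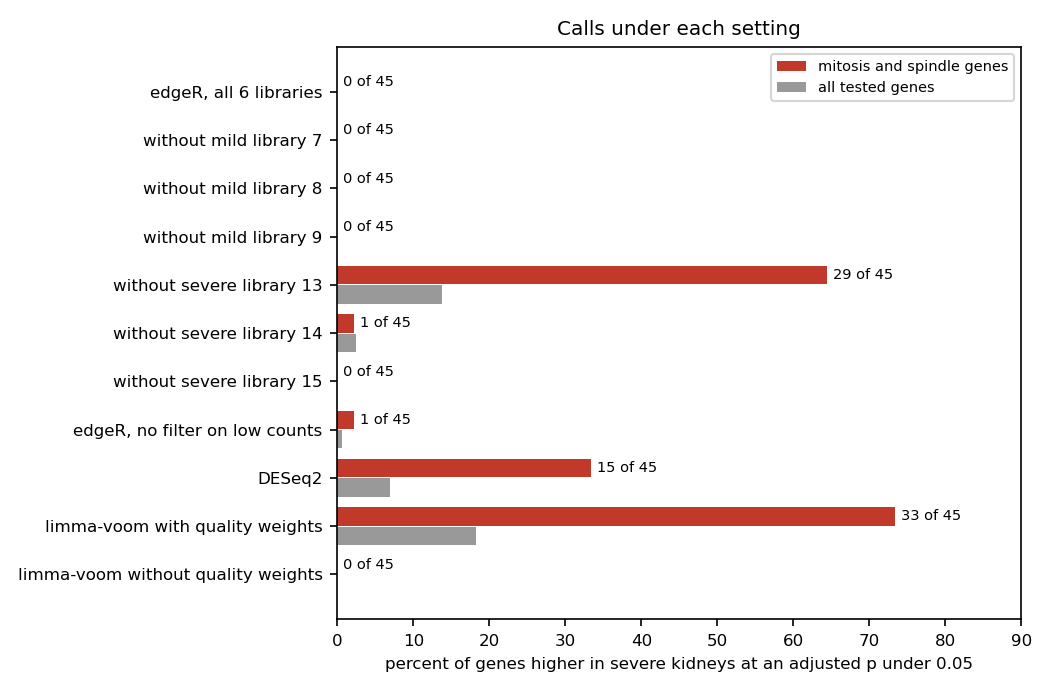
Percent of the 45 mitosis and spindle genes (red) and of all tested genes (grey) higher in severe kidneys at an adjusted p under 0.05, for each test or library left out. The count of mitosis genes ran from 0 with all libraries in edgeR to 29 without severe library 13, and was 33 with limma-voom and quality weights but 0 without the weights.

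Other genes of the same machinery were taken from lists, and 0 members of any passed in edgeR with all libraries (0.0134% of all tested genes). Of 48 tested further mitosis genes, 38 were on the higher side, with a median log2 fold change of 0.59. Examples are the kinesin Kif18b (1.14 ± 0.26), the scaffold Iqgap3 (1.23 ± 0.28), the condensin II subunit Ncapg2 (1.27 ± 0.29) and the phosphatase Cdc25c, which activates Cdk1 (2.01 ± 0.53, from 0.069 CPM in library 7). DNA replication genes, used in the S phase before mitosis, were higher for 28 of 30, with a median of 0.49. The ligase Lig1 stood at 0.94 ± 0.17, the repressor of late S phase E2f8 at 1.73 ± 0.35, Uhrf1 at 1.02 ± 0.26 and the nucleotide-making enzyme Rrm1 at 0.56 ± 0.15.

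Among 13 G1 cyclins and CDK inhibitors the median was 0.23. The inhibitor gene Cdkn1a, which encodes p21 and halts the cycle, was at 12.8, 14.8 and 15.4 CPM in mild and 27.1, 38.7 and 21.3 CPM in severe libraries. Like Mki67, it was above the mild range in all 3 severe kidneys, with 1.02 ± 0.21 as its log2 fold change (edgeR, adjusted p = 0.0867). The inhibitors Cdkn2b and Cdkn1b stood at 1.02 ± 0.31 and 0.23 ± 0.07, and the kinase Cdk4 at 0.31 ± 0.10. The 11 genes listed as DREAM and MuvB regulators, Rb1 among them, had a median of 0.13. Tfdp1 was at 0.26 ± 0.09, Lin54 at 0.25 ± 0.11, Rbl1 at 0.31 ± 0.14 and Lin52 at -0.27 ± 0.11. The 13 core subunits of the anaphase-promoting complex, present in resting cells too, had a median of 0.0322, with Anapc4 at 0.15 ± 0.08, Cdc23 at 0.19 ± 0.11, Cdc27 at 0.13 ± 0.11 and Anapc13 at -0.27 ± 0.09.

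**Figure D5:**
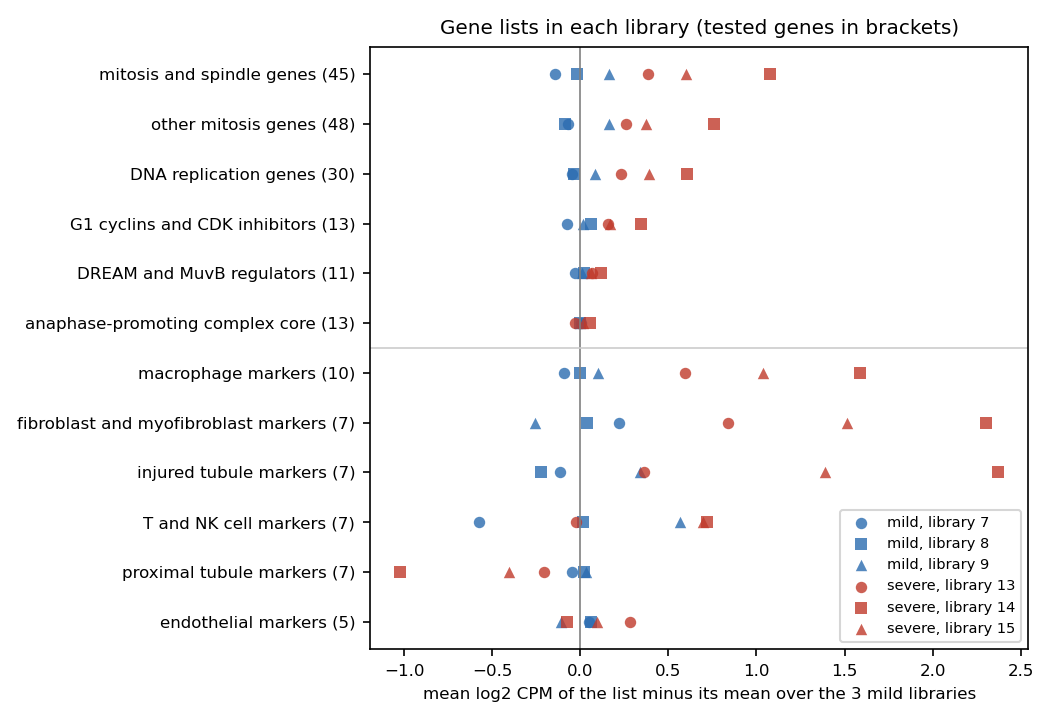
Mean log2 CPM of each gene list minus its mean over the 3 mild libraries, 1 point per library (blue mild, red severe); gene lists of the cell cycle are above the line and cell type markers below it. Mitosis genes reach 1.08 in library 14, and macrophage, fibroblast and injured tubule markers follow the same order of severe libraries.

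Markers of several other cell types were in the same order across the severe libraries as the mitosis genes. That order held for 28.5% of all tested genes. The 10 macrophage markers, all on the higher side, summed to between 315.9 and 378.3 CPM in mild and to 588.3, 1146 and 723.9 CPM in severe libraries 13, 14 and 15. Fibroblast and myofibroblast markers (7 of 7 higher) ran from 438.9 to 564.5 CPM in mild and from 924.0 to 3057 CPM in severe kidneys. Injured tubule markers (7 of 7) ran from 2153 to 2861 and from 2939 to 10268 CPM, in each case highest in library 14. Most of the injured tubule sum was Spp1, and taken singly Krt20, Vcam1, Sox9 and Clu had overlapping groups. Proximal tubule markers (0 of 7 higher) were lowest in library 14. So were the sums of loop of Henle markers (1 of 4 higher) and collecting duct markers (1 of 5 higher). In edgeR 0 of these marker genes passed over all genes tested, and which cells carried the mitosis RNA was not tested. T and NK cell markers, 6 of 7 tested on the higher side, overlapped between the groups, from 7.37 to 13.7 CPM in mild and from 9.83 to 17.6 CPM in severe libraries. Neutrophil markers summed to at most 2.48 CPM, with Mpo at 0 counts in all 6 libraries and Ly6g at 1 count, in library 14, and B cell markers to at most 2.21 CPM. Erythroid markers, from 1.85 to 10.8 CPM in mild kidneys, were at 48.5 CPM in library 13, 6.92 CPM in library 14 and 6.15 CPM in library 15. Endothelial markers (4 of 5 higher) overlapped, from 289.2 to 330.3 CPM in mild and from 294.1 to 373.1 CPM in severe kidneys.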

How the data were processed

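Poly-A RNA of 6 kidneys was sequenced, per the labels' protocols, after TRIzol extraction and library preparation with the NEBNext Ultra RNA kit. HTSeq 0.6.1, TopHat2 2.0.12, Bowtie2 2.2.3 and the mm10 build appear in the submitters' processing notes without their roles. Strand handling during counting and the gene annotation's version were not given in the sources read. The deposited values are raw counts of reads for each gene. Column names gave each library's group by minutes of ischemia, and 0 columns of per-sample values were left out.

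Genes were filtered with filterByExpr, scaled by TMM and tested across all genes with edgeR 4.0.16 (R 4.3.3; quasi-likelihood F test with robust dispersion). The threshold was a Benjamini-Hochberg adjusted p of 0.05. SE is the log2 fold change over the root of F. List levels use log2 CPM with a prior count of 2. Motifs were searched in Python 3.11.15. The gene list and the other lists were chosen with earlier results of these data known. Values in every library are given for 12 genes set by name, the 6 with the smallest p and the 3 with the fold change nearest 0; of each related list the 4 genes with the smallest p are named.

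Strand is unknown, so reads shared with overlapping opposite-strand genes cannot be told apart for Ccna2, Cdca8, Cdc20, Kif20a, Kif4, Nusap1 and Ncapg, whose neighbours also had reads. Floors for 0 counts (3 counts) lie between 0.169 and 0.207 CPM. Alternatives were RLE and library-total scaling, other filters, DESeq2 1.42.0, limma-voom (limma 3.58.1), non-robust dispersion and each library left out. The limma-voom fit without quality weights was added after seeing the data.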

Additional observations from a re-analysis of the deposited data

How the results depend on the processing

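The count of the 45 genes passing was 0 in edgeR with all libraries (34 at an unadjusted p under 0.05), 1 without a filter on low counts, 15 with DESeq2, 33 with limma-voom and quality weights, 0 with limma-voom without them, and from 0 to 29 with 1 library left out. Over all tested genes the count of 2 went to 1 with library totals, 146 without a filter, 1160 with DESeq2, 5041 with quality weights, 2 with limma-voom without them, and from 0 to 3269 with 1 library left out. With 0 calls after leaving out mild library 7, 8 or 9, 2196, 2137 and 2345 genes had an unadjusted p under 0.05, and with 1 call without library 15, 2708. For limma-voom the weights alone made the difference; the cause of the other differences was not tested. Library totals in place of TMM raised the median log2 fold change of all tested genes to 0.17 and that of the mitosis genes to 0.92, a difference between them of 0.75 against 0.72 with TMM. The median of the 45 ran from 0.50 (without library 14) to 0.92 over all 14 alternatives. Of 630 single-gene values 7 changed sign, all for genes near 0: Ect2 to -0.00049 without a filter, -0.011 with quality weights, -0.051 without mild library 8 and -0.085 without library 14; Cenpe to -0.036, -0.038 and -0.101 without libraries 7, 8 and 14. With 1 library left out the highest values were 0.089 for Ect2 and 0.27 for Cenpe. No paired analysis was made because the labels pair no samples. Total counts were lowest, and counting error so largest relative to the level, for Ttk, Cdca5, Kif15, Melk and Bub1. SE did not follow total counts alone: it was 0.27 for Melk (188 counts) and 0.35 for Cdk1 (582 counts).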

Other observations

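Of the 48 tested mitosis genes outside the main list, 10 had a negative log2 fold change. For 16 every severe library lay above every mild one, against 17.9% of all tested genes, and for 6 every severe library lay below. The share of all tested genes with every severe library below was not counted. These 6 are named here after their values were seen, and 0 passed the adjusted threshold in edgeR. Unadjusted p was under 0.05 for 4 of them, and no other gene of the 48 was lower at that p. Over all tested genes 1175 of 14883 were, a share close to 4 of 48. On the higher side 17 of the 48 had an unadjusted p under 0.05, against 15.8% of tested genes. Kif20b, a kinesin of the midbody, was at 29.6, 21.9 and 24.98 CPM in mild and 17.7, 10.1 and 16.5 CPM in severe libraries, with -0.78 ± 0.21 as its log2 fold change (edgeR, adjusted p = 0.109). Cit, which encodes the citron kinase of the cleavage furrow, was at 17.0, 15.0 and 19.8 CPM in mild and 13.8, 10.1 and 12.5 CPM in severe libraries, at -0.51 ± 0.16 (adjusted p = 0.130). For both genes library 14 was the lowest. The other 4 were the kinetochore gene Spc25 (-0.31 ± 0.12), Cks2, a small partner of CDKs (-0.29 ± 0.13), the securin gene Pttg1 (-0.28 ± 0.11) and the condensin II subunit gene Ncaph2 (-0.11 ± 0.08).

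Ccnd1, the G1 cyclin of growth-factor signalling, stood at 198, 216 and 183 CPM in mild and 176, 126 and 157 CPM in severe libraries (log2 fold change -0.38 ± 0.14, adjusted p = 0.166), also chosen after its values were seen. It was lowest in library 14, where Mki67 was highest. Counts of Cdkn2a, a CDK inhibitor gene, ran from 1 to 4 and were too low for a test.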
